A study of Mus musculus with 6 samples.

Results

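Zscan4c, Zscan4d, Zscan4f, Tcstv1, Tcstv3, Usp17la, Usp17le, Tdpoz3 and Gm5662 are 9 genes known for their expression in the 2-cell mouse embryo. They were taken by gene symbol from the 23244 loci listed for each library, and each of the 9 was found at 1 locus. RNA depleted of ribosomal RNA was sequenced in 6 libraries of mouse embryonic stem (ES) cells, which are derived from the early embryo and renew themselves in culture. The line carries Zscan10, a SCAN-domain zinc-finger gene, flanked by loxP sites (floxed), so that Cre recombinase can delete it. The 3 control libraries, titled Zscan10_f/f-Tx, came from cells that had not undergone the deletion, and the labels do not spell out "Tx". The 3 null libraries came from Zscan10-null cells that had been subcloned, so subcloning and the loss of Zscan10 cannot be told apart. No label gives the strain, the driver of Cre or separate cultures for the replicates, so p-values measure only the spread between these libraries, which may be technical.

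The labels were checked first. Zscan10 measured 44.2, 43.0 and 41.9 FPKM (fragments scaled to transcript length and library size) in control replicates 1 to 3 and 5.49, 4.43 and 5.47 FPKM in null replicates 1 to 3. The labels do not say which part of the gene was deleted. The 10 ES cell markers summed to 4319 to 4405 FPKM in the control libraries and 4025 to 4358 FPKM in the null libraries, with none at 0. Totals lay between 664555 and 699401 FPKM per library. Steps between low values put the relative depth of the libraries between 0.986 and 1.09, and a rough estimate for control replicate 1 was 7603000 fragments.

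In mice the 2-cell embryo is the stage at which the embryo's own genome is first transcribed on a large scale, and the Zscan4, Tcstv, Usp17l, Tdpoz and Eif1a-like families are among the genes switched on there. In ES cell cultures a small, changing fraction of cells re-enters a similar state for a short time and switches the same families on together. The transcription factor Dux activates many of them, and chromatin repressors such as Trim28, Setdb1 and Kdm1a hold them down. Zscan4 proteins are zinc-finger proteins known for telomere lengthening and genome stability in ES cells. Usp17l genes encode ubiquitin-specific proteases, which remove ubiquitin from other proteins. Tdpoz genes encode proteins with TRAF and BTB/POZ domains, and Tcstv genes were named as a variable group of the 2-cell stage.

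All these families have several copies, and the sequences show how close those of the Zscan4, Usp17l and Eif1a-like families are. RefSeq's promoter table for GRCm38.p6, the build also called mm10, held 4 of the 9 members, Zscan4c, Zscan4d, Zscan4f and Usp17la. The upstream sequences of the 3 Zscan4 members are shown because these genes rose together: each is the 250 bases before the annotated start, 5′ to 3′ on the gene's strand. Zscan4c lies on the plus strand (upstream chr7:11005495-11005744), Zscan4d on the minus strand (chr7:11166149-11166398) and Zscan4f on the plus strand (chr7:11397665-11397914). Capitals mark bases that differ between Zscan4c and Zscan4d or Zscan4f where their windows overlap.
Zscan4c: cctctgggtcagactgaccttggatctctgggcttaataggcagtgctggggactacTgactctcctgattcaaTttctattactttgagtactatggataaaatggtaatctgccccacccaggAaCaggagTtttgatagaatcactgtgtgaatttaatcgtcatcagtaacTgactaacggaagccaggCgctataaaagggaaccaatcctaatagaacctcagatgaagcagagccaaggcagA
Zscan4d: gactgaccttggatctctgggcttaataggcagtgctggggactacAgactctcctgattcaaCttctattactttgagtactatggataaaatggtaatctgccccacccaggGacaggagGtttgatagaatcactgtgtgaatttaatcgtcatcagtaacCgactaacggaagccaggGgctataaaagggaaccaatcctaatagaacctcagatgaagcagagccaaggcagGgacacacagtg
Zscan4f: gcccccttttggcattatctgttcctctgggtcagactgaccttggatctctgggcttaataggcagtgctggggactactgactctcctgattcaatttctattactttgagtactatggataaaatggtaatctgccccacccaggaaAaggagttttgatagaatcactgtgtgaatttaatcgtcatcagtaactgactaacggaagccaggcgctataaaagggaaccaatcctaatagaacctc
Zscan4c and Zscan4d differed at 7 of 239 overlapping bases (97.1% identity), and Zscan4c and Zscan4f at 1 of 227 (99.6%). The motif TATAAA, searched on both strands, lay 54, 65 and 31 bases before the annotated start of Zscan4c, Zscan4d and Zscan4f. It was found in 4 of the 4 Zscan4 promoters in the table and in 12.4% of all 32851 promoters of the same length. Being near copies of one another, these 4 promoters do not count as separate cases.

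The upstream window of Usp17la, the member of that family with the largest ratio, is shown beside that of its relative Usp17lc. Both lie on the plus strand, Usp17la at chr7:104856766-104857015 and Usp17lc at chr7:103416446-103416695. Capitals mark TTTAAA in Usp17la and TATAAA in Usp17lc within an otherwise like stretch, 46 and 88 bases before their annotated starts.
Usp17la: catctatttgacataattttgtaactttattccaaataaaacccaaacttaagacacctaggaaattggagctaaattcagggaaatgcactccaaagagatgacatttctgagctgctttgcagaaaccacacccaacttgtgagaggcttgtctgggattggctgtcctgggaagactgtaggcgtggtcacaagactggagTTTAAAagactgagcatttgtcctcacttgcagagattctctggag
Usp17lc: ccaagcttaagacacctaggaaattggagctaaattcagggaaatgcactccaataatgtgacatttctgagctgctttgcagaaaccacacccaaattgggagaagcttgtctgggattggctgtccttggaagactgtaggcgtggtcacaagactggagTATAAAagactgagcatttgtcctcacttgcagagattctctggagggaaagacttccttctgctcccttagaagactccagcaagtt
TATAAA was found in 3 of the 4 Usp17l promoters in the table, Usp17lb, Usp17lc and Usp17ld, and its letters are not in the window of Usp17la.

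The coding sequences of the Zscan4 members were as close. Zscan4c and Zscan4f, each with 1521 coding bases, were 99.6% identical, and Zscan4d was 97.7% identical to either. The 90 coding bases with the most differences between these 3 members, coding bases 676 to 765 in exon 4, show what a fragment must cover to tell the copies apart. They lie at chr7:11009151-11009240 (Zscan4c, plus strand), chr7:11162677-11162766 (Zscan4d, minus strand) and chr7:11401344-11401433 (Zscan4f, plus strand). Capitals mark the 8 positions at which the members differ.
Zscan4c: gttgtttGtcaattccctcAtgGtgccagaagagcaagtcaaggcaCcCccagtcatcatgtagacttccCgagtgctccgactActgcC
Zscan4d: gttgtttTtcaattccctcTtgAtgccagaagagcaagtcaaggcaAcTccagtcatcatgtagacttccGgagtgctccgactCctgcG
Zscan4f: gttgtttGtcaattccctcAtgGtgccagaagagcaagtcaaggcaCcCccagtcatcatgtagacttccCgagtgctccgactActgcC
Zscan4c and Zscan4f had the same letters throughout this stretch, so a fragment within it separates only Zscan4d.

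Usp17la (1581 coding bases) and Usp17le (1623) were 94.7% identical over aligned bases. Their most different 90 bases within 1 exon lie in exon 3, at chr7:104861328-104861417 (Usp17la, plus strand) and chr7:104768604-104768693 (Usp17le, minus strand), with 16 differing positions in capitals.
Usp17la: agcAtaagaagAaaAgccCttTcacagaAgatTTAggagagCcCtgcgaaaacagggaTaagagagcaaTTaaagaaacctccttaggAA
Usp17le: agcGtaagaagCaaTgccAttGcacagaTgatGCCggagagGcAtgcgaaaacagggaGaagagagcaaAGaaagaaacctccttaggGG
Gm5662, a predicted gene with 435 coding bases, was 94.0% identical to Eif1a, which encodes a translation initiation factor, and 99.1% identical to Gm2016, another copy on chromosome 12. In the most different 90 bases, in exon 2 at chr12:88271713-88271802 (Gm5662, minus strand) and chr12:87876771-87876860 (Gm2016, plus strand), 2 positions differed, again in capitals.
Gm5662: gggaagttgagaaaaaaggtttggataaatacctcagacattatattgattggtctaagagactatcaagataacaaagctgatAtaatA
Gm2016: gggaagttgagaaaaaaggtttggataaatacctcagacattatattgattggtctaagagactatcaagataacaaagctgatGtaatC
Tcstv1 (516 coding bases) and Tcstv3 (510) were 94.7% identical over aligned bases. Tdpoz3 is a single exon of 1098 bases, all of it coding. It was 88.1% identical to Tdpoz1 and 78.5% to Tdpoz4 over aligned bases. Gm4982, which was not aligned, holds 66.2% of the 50-base windows of Tdpoz3 exactly.

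Expression of 7 of the 9 members was higher in the null libraries, by ratios of group means between 1.79 and 3.95, and none was lower. Tcstv3 did not pass the test, and Tcstv1 was below the minimum level for testing. The test was limma on log2(FPKM + 1) over the 11480 loci that averaged 1 FPKM or more across the 6 libraries, with Benjamini-Hochberg adjustment and a threshold of 0.05. By that rule 25.2% of all tested loci were called, 12.8% as higher and 12.4% as lower in the null libraries. Of the 8 members tested, 7 were called higher. Their median log2 fold change was 1.09, against −0.003 over all tested loci. Tdpoz3 passed the minimum only through its null libraries. Of the 7 members with a control mean of at least 1 FPKM, 6 were called, with a median of 1.05. Every null library was above every control library in 7 of the 8 tested members, against 21.6% of all tested loci. They were the 7 called members, and the call and this separation come from the same values. In these bulk samples more cells in the 2-cell-like state and more RNA per such cell cannot be told apart, and neither can fewer cells and less RNA per cell.

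**Figure D1:**
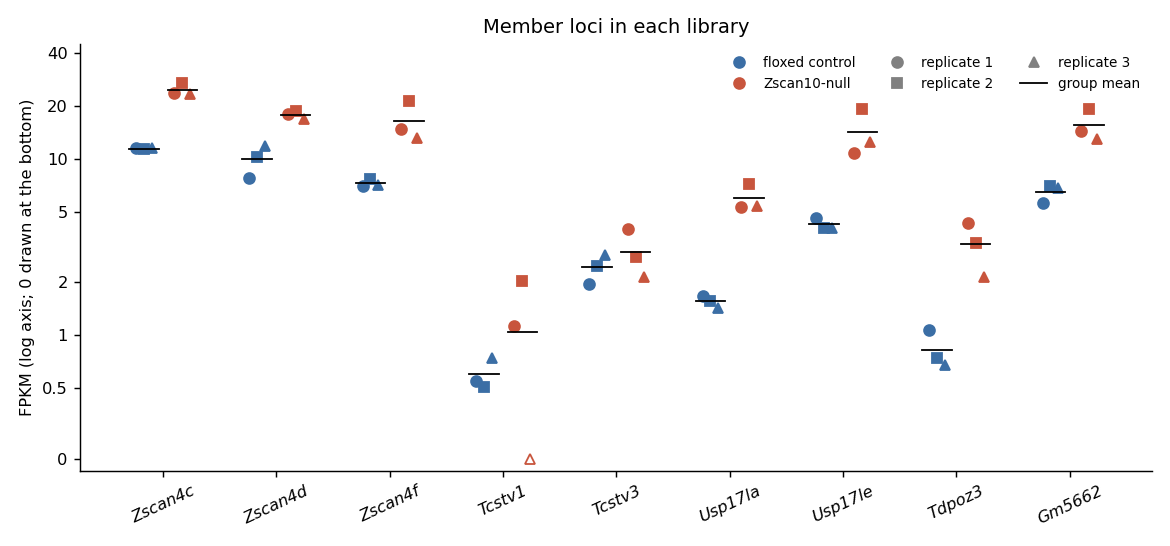
FPKM of the 9 member loci (log axis, with 0 drawn at the bottom as an open symbol) in the 3 floxed control libraries (blue) and the 3 Zscan10-null libraries (red); symbol shape gives the replicate and the line the group mean. For 7 members all red points lie above all blue points, while Tcstv1 and Tcstv3 overlap.

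Among the zinc-finger members, Zscan4c (chr7:11005745-11010547, plus strand, 4 exons) measured 11.5, 11.4 and 11.5 FPKM in control replicates 1 to 3 and 23.8, 27.0 and 23.5 FPKM in null replicates 1 to 3. The control libraries were nearly equal, and each null library stood well above them. Zscan4c rose from 11.5 ± 0.0826 to 24.8 ± 1.95 FPKM (SD, n = 3 libraries), 2.16 times, with a log2 fold change of 1.04 (SE 0.06, limma adjusted p = 1.40e-04). Zscan4f (chr7:11397915-11402318, plus strand, 4 exons) measured 7.01, 7.73 and 7.12 FPKM in the control libraries and 14.9, 21.3 and 13.2 FPKM in the null libraries. Null replicate 2 stood apart from the other null libraries, and the groups did not overlap. Zscan4f rose 2.26 times, from 7.29 ± 0.385 to 16.5 ± 4.28 FPKM (log2 fold change 1.05, SE 0.15, limma adjusted p = 0.00370). Zscan4d (chr7:11161643-11166148, minus strand, 4 exons) measured 7.85, 10.3 and 11.9 FPKM in the control libraries and 18.0, 18.8 and 16.9 FPKM in the null libraries. Here the control libraries were the more scattered group, and its highest value still lay below every null library. Zscan4d rose 1.79 times, from 9.995 ± 2.02 to 17.9 ± 0.931 FPKM (log2 fold change 0.80, SE 0.13, limma adjusted p = 0.00509). Whether the members' fold changes differ from each other was not tested.

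The ubiquitin proteases had larger ratios. Usp17la (chr7:104857016-104862667, plus strand, 3 exons) measured 1.67, 1.57 and 1.43 FPKM in the control libraries and 5.32, 7.26 and 5.40 FPKM in the null libraries. It rose 3.85 times, from 1.56 ± 0.121 to 5.99 ± 1.10 FPKM (log2 fold change 1.44, SE 0.12, limma adjusted p = 5.30e-04). Because 1 is added to each value before the logarithm, fold changes of low genes come out smaller than their ratios, and with 0.1 added instead that of Usp17la was 1.87. Usp17le (chr7:104767961-104777470, minus strand, 3 exons) measured 4.64, 4.06 and 4.08 FPKM in the control libraries and 10.8, 19.3 and 12.6 FPKM in the null libraries. Null replicate 2 was the highest library for both proteases. Usp17le rose 3.34 times, from 4.26 ± 0.327 to 14.2 ± 4.50 FPKM (log2 fold change 1.495, SE 0.19, limma adjusted p = 0.00199). By log2 fold change Usp17le and Usp17la ranked 25 and 26 from the highest of the 11480 tested loci.

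Tdpoz3 (chr3:93826020-93827117, plus strand) measured 1.08, 0.741 and 0.675 FPKM in the control libraries and 4.37, 3.32 and 2.15 FPKM in the null libraries. All 3 null libraries were higher, although null replicate 3 was well below null replicate 1. Tdpoz3 rose 3.95 times, from 0.831 ± 0.215 to 3.28 ± 1.11 FPKM (log2 fold change 1.198, SE 0.20, limma adjusted p = 0.00535; 1.83 with 0.1 added). These values rest on few fragments: the steps between low values gave 8, 6 and 5 fragments in the control libraries and 32, 27 and 16 in the null libraries. Gm5662 (chr12:88270635-88274497, minus strand, 2 exons) measured 5.64, 6.99 and 6.84 FPKM in the control libraries and 14.4, 19.2 and 13.05 FPKM in the null libraries. It rose 2.39 times, from 6.49 ± 0.741 to 15.5 ± 3.21 FPKM (log2 fold change 1.13, SE 0.14, limma adjusted p = 0.00198). Eif1a itself went from 112 to 129 FPKM, 1.15 times (limma adjusted p = 0.0180).

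Neither Tcstv member was called. Tcstv3 (chr13:120316862-120318261, plus strand, 2 exons) measured 1.97, 2.46 and 2.87 FPKM in the control libraries and 3.99, 2.78 and 2.15 FPKM in the null libraries. The groups overlapped, with 1 null library above all control libraries. Its means were 2.43 ± 0.453 and 2.97 ± 0.936 FPKM (log2 fold change 0.19, SE 0.18, limma adjusted p = 0.464), from 11, 15 and 16 fragments in the control libraries and 22, 17 and 12 in the null libraries. Tcstv1 (chr13:119893387-119894785, minus strand, 2 exons) measured 0.554, 0.508 and 0.741 FPKM in the control libraries and 1.12, 2.03 and 0 FPKM in the null libraries. That is 3, 3 and 4 fragments against 6, 12 and 0, so the null libraries held both the highest and the lowest value. With no minimum level its log2 fold change was 0.22 (limma adjusted p = 0.745). That Tcstv3 missed the threshold does not show equal levels. 3 other loci are close to them by coding sequence and were looked at after their values were seen. Gm20767 (94.8% identical to Tcstv3) rose from 21.4 to 37.0 FPKM, 1.73 times (limma adjusted p = 0.00393). AF067061 (95.9% identical to Tcstv3) rose from 10.9 to 17.3 FPKM, 1.58 times (limma adjusted p = 0.00328). AF067063 (83.1% identical) was too low to test, at 0.177, 0.324 and 0.355 FPKM in the control libraries and 1.61, 0.808 and 1.77 FPKM in the null libraries.

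Within the control libraries the members' levels, which FPKM gives per length, ran from Zscan4c (mean 11.5 FPKM) through Zscan4d, Zscan4f, Gm5662, Usp17le, Tcstv3, Usp17la and Tdpoz3 to Tcstv1 (0.601 FPKM). Neighbours in that order overlapped between libraries for Zscan4c with Zscan4d and for Tdpoz3 with Tcstv1. In the null libraries Zscan4c was again highest, and Zscan4d, Zscan4f, Gm5662 and Usp17le overlapped one another between 10.8 and 21.3 FPKM. Usp17la passed Tcstv3 in the order of means, and so did Tdpoz3, whose null libraries overlapped those of Tcstv3. Fragments estimated from depth and transcript length, a rough figure, ran in the null libraries from 405 to 511 for Zscan4c and from 106 to 160 for Usp17la.

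Sums over the copies of a family depend less on how reads were split among them than single values do, although FPKM still weighs a read by the length of the copy it was given to. With each copy weighted by its transcript length, an alternative added after the data were seen, the ratios of the Zscan4, Usp17l and Tdpoz sums were 2.07, 2.81 and 2.69. The 6 Zscan4 loci together measured 42.9, 45.1 and 45.6 FPKM in the control libraries and 88.4, 108 and 80.7 FPKM in the null libraries, a ratio of 2.07. The other 3 copies, which are no members, went the same way: Zscan4a from 10.6 to 22.7 FPKM, Zscan4b from 1.93 to 3.84 FPKM and Zscan4e from 3.29 to 6.63 FPKM, with limma adjusted p-values of 0.00464, 0.00183 and 0.00630. Members held 64.5% of the Zscan4 sum in the control libraries and 64.1% in the null libraries. The 5 Usp17l loci summed to 13.9, 12.4 and 12.8 FPKM and to 30.5, 42.7 and 31.4 FPKM, a ratio of 2.68. Usp17lb, Usp17lc and Usp17ld had ratios of 2.01, 1.96 and 2.47 (limma adjusted p = 0.00137, 0.00626 and 0.0489). Usp17ld, with a control mean of 0.599 FPKM, reached the level for testing only through its null libraries, and its call was lost with no minimum level (limma adjusted p = 0.0700). In the whole family the share of Usp17la and Usp17le was 44.7% in the control libraries and 58.0% in the null libraries. The 5 Tdpoz loci summed to 3.36, 2.18 and 1.34 FPKM and to 7.17, 6.93 and 4.58 FPKM, a ratio of 2.72. Tdpoz4 rose from 1.03 to 2.44 FPKM (limma adjusted p = 0.0269), while Tdpoz1 and Tdpoz2 were at most 0.701 FPKM in any library and Tdpoz5 was listed at 0. These 5 loci were taken by symbol, and listed loci outside the sum share their sequence. Gm10697 holds 100% of the 50-base windows of Tdpoz5, Gm9125 40.7% of those of Tdpoz1 and Gm4858 23.4% of those of Tdpoz4. Where the reads of Tdpoz5 were placed was not tested. The 8 loci of Gm5662 and its Eif1a-like relatives summed to 48.2 ± 1.08 and 105 ± 18.4 FPKM, a ratio of 2.18. Each of these 4 sums was higher in every null library (exact two-sided permutation p = 0.1, the smallest that 3 against 3 libraries allow), and the sum of Tcstv1 and Tcstv3 alone was not (3.04 ± 0.549 and 4.02 ± 1.63 FPKM, exact p = 0.4). With their relatives Gm20767, AF067061 and AF067063 added, a choice made after the data were seen, that sum was 36.8, 34.7 and 35.4 FPKM in the control libraries and 64.7, 65.1 and 49.3 FPKM in the null libraries, a ratio of 1.68 (exact p = 0.1). Most of it came from Gm20767 and AF067061.

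The copies could share reads to different degrees. Of the 50-base windows of each member's transcript, 95.3% for Zscan4f, 85.5% for Zscan4c and 49.6% for Zscan4d occur exactly in the transcript of another gene. The share was 77.9% for Gm5662, 66.2% for Tdpoz3, 31.4% for Tcstv3, 30.8% for Usp17le, 25.3% for Tcstv1 and 20.4% for Usp17la. With windows of 100 bases the shares fell to 89.5% for Zscan4f and 3.8% for Usp17la. At that length 69.6% of the windows of Zscan4f occur in Zscan4c and 74.9% in Zscan4-ps2, a pseudogene not among the loci used here. For Gm5662 52.2% occur in Gm2016, and for Tdpoz3 46.7% in Gm4982, which is also not among these loci. The largest ratios, those of Tdpoz3, Usp17la and Usp17le, therefore belong to transcripts with shared portions from 66.2% down to 20.4%. No 2 loci of a family had equal values in all libraries. The sources used here do not say how the authors placed reads with several matches, so the split among Zscan4c, Zscan4f and their copies is uncertain.

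**Figure D2:**
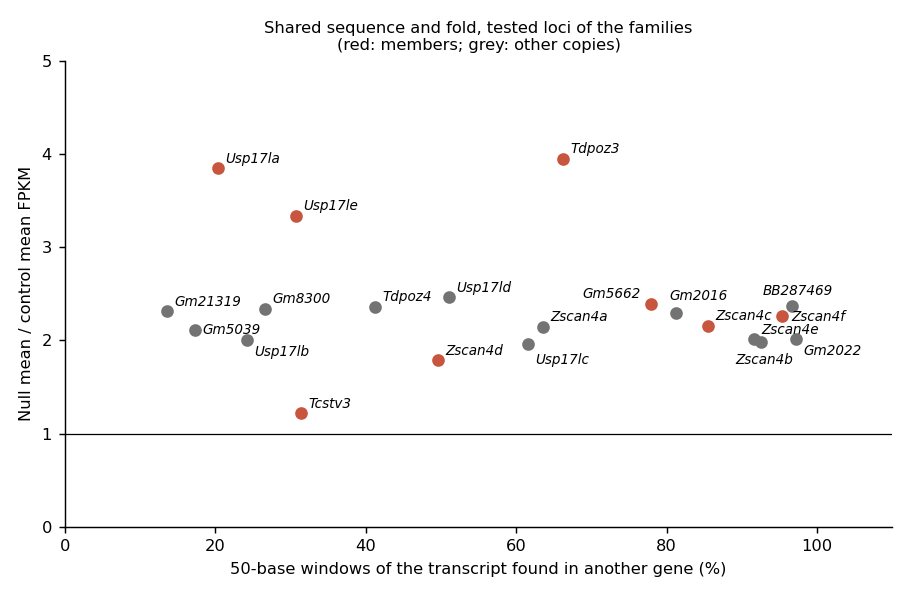
Ratio of null mean to control mean FPKM (vertical) against the percentage of the transcript's 50-base windows found in another gene (horizontal) for the tested loci of the families; members are red and other copies grey. Usp17la lies at 20.4% with a ratio of 3.85 and Zscan4f at 95.3% with a ratio of 2.26, and every point lies above 1.

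The null libraries did not differ from the control libraries to the same degree. Null replicate 2 was the highest null library in 6 of the 8 tested members, and null replicate 3 the lowest in 6 of 8. Among all tested loci null replicate 2 was highest in 32.0% and null replicate 3 lowest in 32.8%. Usp17le was 1.65 times higher in null replicate 2 than in the mean of the other null libraries, Zscan4f 1.52, Gm5662 1.40 and Usp17la 1.36 times. For Zscan4c, Zscan4d and Tdpoz3 this ratio was 1.14, 1.08 and 1.02, and for Tcstv3 it was 0.906. A ratio of at least 1.2 was reached by 4 of 8 members, against 7.55% of all tested loci and 4.97% of the loci called higher in the null libraries. These loci share their libraries and, within a family, possibly their reads, so the counts are a description without a test. Null replicate 2 was also the deepest null library, with a relative depth of 1.09 against 0.986 and 0.999, and control replicate 2 was as deep. The members had no common order in the control libraries, where each of 4 orders was shared by 2 of the 8 tested members. Without null replicate 2 all 7 calls held.

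**Figure D3:**
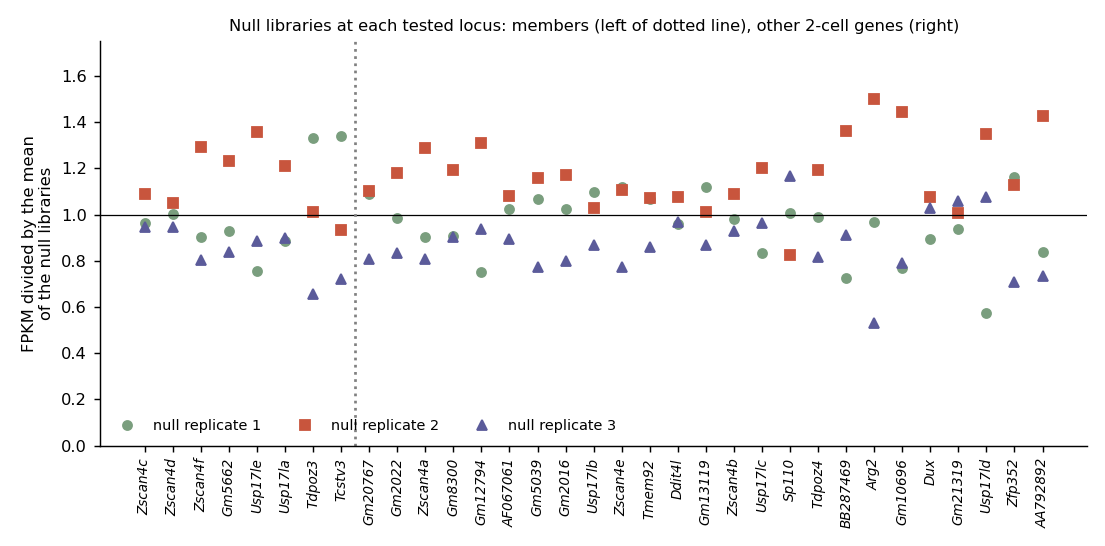
FPKM in each null library divided by the mean of the 3 null libraries (vertical) for the tested members (left of the dotted line) and the other tested 2-cell genes (right), with shape and colour giving the replicate. Null replicate 2 (red squares) is highest at 6 of 8 members and 19 of 25 other genes.

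Other genes of the 2-cell state, beside the 9 members, were mostly higher as well. Of 43 symbols on a list of such genes, 6 were not found, and the rest gave 40 loci. 25 of them could be tested, and 4 were at 0 throughout. Of the tested loci, 20 were higher in the null libraries and 0 were lower, against 12.8% and 12.4% of all tested loci. The median log2 fold change of the 25 was 0.72. By symbol, 13 of the 20 are further copies in the members' own families, which may share reads with the members. Each of the 13 such copies tested was called (median 0.82). BB287469, Gm21319 and Usp17ld, with control means of 0.981, 0.710 and 0.599 FPKM, reached the level for testing only through their null libraries. Their calls therefore carry no weight of their own. With no minimum level the calls of Gm21319 and Usp17ld were lost (limma adjusted p = 0.0687 and 0.0700), and that of BB287469 held (limma adjusted p = 0.0309). Both tested Tcstv relatives, Gm20767 and AF067061, were called too. Of the 10 tested loci placed outside these families by symbol 5 were higher, Sp110, Tmem92, Ddit4l, Gm12794 and Gm13119, with a median of 0.475 over the 10. Of the 20 tested loci whose control mean was at least 1 FPKM, 17 were higher. Each of the 11 untested loci above 0 had a higher null mean, though that of Tdpoz1 was hardly so (0.0190 and 0.0191 FPKM). In 7 of the 11 the groups did not overlap, against 16.4% of all loci above 0, a share that takes in the tested loci. Gm12794 rose the most by log2 fold change, measuring 5.77, 7.15 and 5.02 FPKM in the control libraries and 14.7, 25.6 and 18.4 FPKM in the null libraries (3.27 times, limma adjusted p = 0.00209). Gm8300, an Eif1a-like copy, rose from 9.25 to 21.6 FPKM and Gm2022, another, from 18.3 to 36.9 FPKM (limma adjusted p = 0.00178 and 0.00170). Gm2016 and Gm5039 rose 2.30 and 2.11 times. Tmem92, a transmembrane protein gene, rose from 2.92 to 6.25 FPKM (limma adjusted p = 0.00248) and Gm13119 from 1.697 to 4.01 FPKM (limma adjusted p = 0.00225). The 5 loci that were not called, named after their values were seen, were Dux, Arg2, Gm10696, Zfp352 and AA792892. By symbol all 5 were placed outside the members' families. For Gm10696 that placing is uncertain, because it shares 24 exact 50-base windows with Tdpoz5. Null replicate 2 was highest in 19 of the 25 tested loci, 76.0%, and at least 1.2 times the mean of the others in 14.

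**Figure D4:**
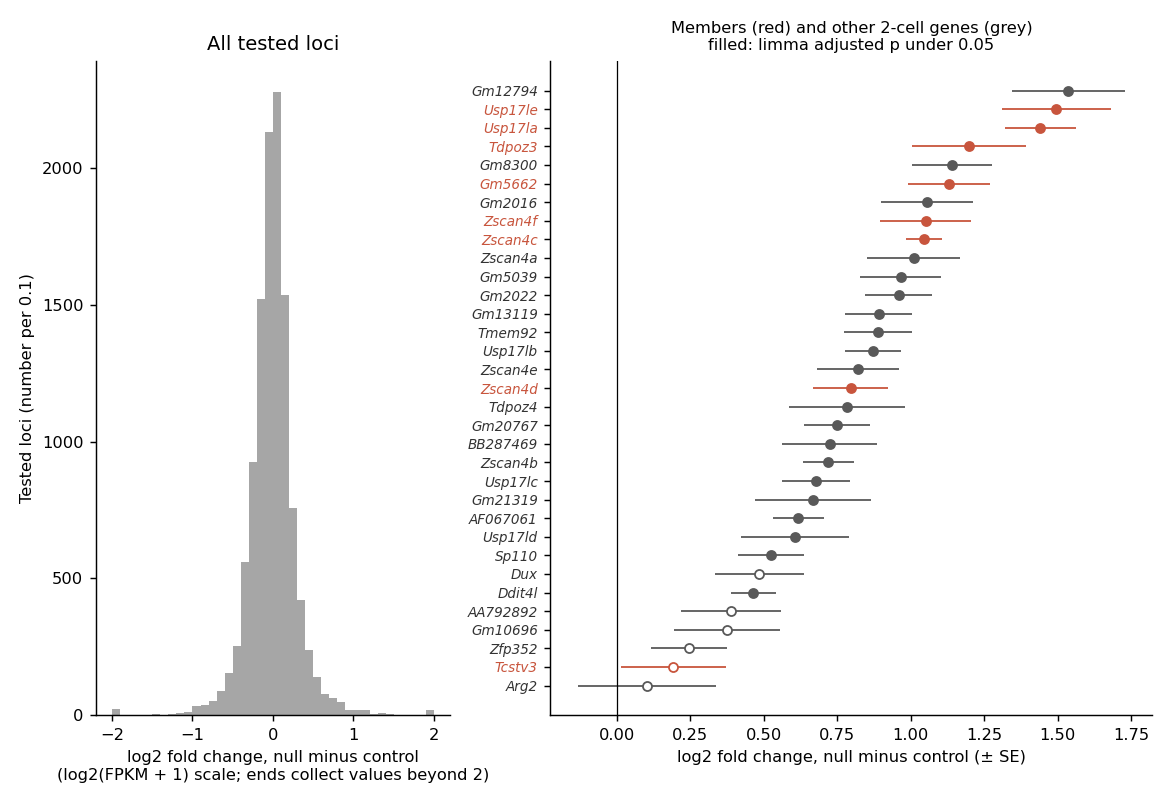
Left, number of tested loci by log2 fold change (null minus control, on the log2(FPKM + 1) scale), with values beyond 2 collected at the ends. Right, log2 fold change with its SE for the 8 tested members (red) and 25 other tested 2-cell genes (grey), filled where the limma adjusted p is under 0.05; Usp17le and Usp17la lie near 1.5 and Tcstv3 near 0.2.

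Factors that act on the 2-cell state were read from 2 further lists. Dux, the transcription factor that switches on many of these genes, measured 1.19, 1.27 and 0.595 FPKM in the control libraries and 1.60, 1.93 and 1.85 FPKM in the null libraries. The groups did not overlap, yet Dux missed the threshold (log2 fold change 0.48, SE 0.15, limma adjusted p = 0.0528), with 9 to 21 fragments in the control libraries and 24 to 32 in the null libraries. Of 11 tested activators, 5 were higher and 1 was lower, and the median log2 fold change was 0.23. Over all tested loci 12.8% were higher and 12.4% lower, so 1 lower activator is near that share. Tbx3, a T-box factor of ES cells, measured 15.5, 14.7 and 14.5 FPKM against 29.8, 26.0 and 24.9 FPKM (1.81 times, limma adjusted p = 6.45e-04). Dppa2, which acts upstream of Dux, rose 1.30 times, from 108 to 141 FPKM (limma adjusted p = 0.00168), while its partner Dppa4 measured 163 and 166 FPKM (limma adjusted p = 0.660). Zmym3, Zfp281 and Rif1 rose 1.49, 1.22 and 1.17 times, and the histone demethylase Kdm5b fell to 0.876 times its control level. Their limma adjusted p-values were 0.00137, 0.00876, 0.00566 and 0.0160. No activator was called lower when control replicate 1, 2 or 3 or null replicate 3 was left out, so the call of Kdm5b was lost there. Those runs also called fewer loci in all. With all libraries its groups did not overlap, at 108, 108 and 110 FPKM in the control libraries and 100, 92.6 and 92.6 FPKM in the null libraries.

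Of the 35 repressors, all tested, 10 were higher and 4 lower, and the median log2 fold change was 0.09. Over all tested loci 12.8% were higher and 12.4% lower, so the count of lower repressors is near that share. The chromatin remodeller Atrx rose 1.44 times, from 52.3 to 75.3 FPKM (limma adjusted p = 0.00105). Uhrf1, which guides maintenance DNA methylation, rose 1.29 times and the histone methyltransferase Setdb1 1.28 times (limma adjusted p = 0.00106 and 0.00228). L3mbtl2 and Ring1, of a variant Polycomb complex, rose 1.199 and 1.24 times, and the methyltransferase Ehmt2 1.19 times (limma adjusted p = 0.00718, 0.0487 and 0.0186, with Ring1 at 0.0967 when no minimum level was set). Mga, of the same Polycomb complex, fell to 0.848 times its control level, and Zfp42 to 0.851 times (limma adjusted p = 0.00733 and 0.0188). With same-numbered libraries treated as blocks the call of Mga held and that of Zfp42 was lost (limma adjusted p = 0.0188 and 0.0512). Trim28 measured 698 and 715 FPKM (limma adjusted p = 0.537) and Kdm1a 104 and 101 FPKM (limma adjusted p = 0.299). The count of repressors called ran from 7 to 16 when single libraries were left out: 16 without null replicate 1 and 7 without null replicate 3.

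Markers of other cell types were read beside the members. Over all tested loci 12.8% were higher and 12.4% lower. The 11 trophectoderm markers summed to 50.2 to 56.2 FPKM in the control libraries and 58.9 to 73.6 FPKM in the null libraries, with 4 of 6 tested markers higher (Hand1, Tfap2c, Eomes and Esx1). Hand1 and Esx1, with control means of 0.577 and 0.459 FPKM, reached the level for testing only through the null libraries, so their calls carry no weight of their own. The defining factor Cdx2 was at most 0.439 FPKM in any library. The 8 oocyte markers summed to 3.39 to 6.23 FPKM in the control libraries and 8.29 to 11.6 FPKM in the null libraries. Zp3 was the only oocyte marker tested and rose from 4.52 to 9.03 FPKM (limma adjusted p = 0.0141), while Zp2 and Oosp1 were at 0 and Gdf9 was at most 0.301 FPKM. The 9 endoderm markers summed to 6.81 to 8.86 and 4.14 to 6.17 FPKM, with 1 of 3 tested lower. The 9 fibroblast markers summed to 121 to 128 and 164 to 222 FPKM, mostly from Vim. Of the 4 tested, Vim and Thy1 were higher and Acta2 and Tagln lower. Col1a1 and Col1a2 were too low to test and went from 0.738 to 0.0861 FPKM and from 1.13 to 0.0776 FPKM. Their groups did not overlap, while those of Col3a1, Lum and Dcn, also untested, did. Of the 10 ES cell markers, Esrrb, Tfcp2l1 and Zfp42 were lower and 0 were higher. The part of these markers' cells in the members' rise was not tested.

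Neighbours whose symbols belong to none of these families or lists were read on each chromosome. Within 500 kb of the Zscan4 members none of the 10 other loci reached the level for testing. Near the Tcstv members 2 of 5 tested neighbours were higher, near the Usp17l members 1 of 1, near Tdpoz3 0 of 2 and near Gm5662 1 of 2. Over all tested loci 12.8% were higher. The 4 higher neighbours, named after their values were seen, were Zfp131, B020031M17Rik, Trim12c and Gm1995. B020031M17Rik holds 4 exact 50-base windows of AF067061 and 2 of Tcstv1, and whether reads were shared was not tested.

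The loci whose pattern was most like the members' were sought outside the lists, by the correlation over the 6 libraries with the members' mean standardised level. Among 10602 loci the 8 highest were Snx24, Atg16l1, Dennd1b, Dnm2, Raly, Gadd45b, Pramel7 and Klf9, with Pearson's r from 0.993 to 0.997. The 6 points form 2 groups, so a locus that differs evenly between them reaches a high r, and 320 loci reached at least 0.95. Pramel7, a PRAME-family gene of naive ES cells, measured 2.03, 1.93 and 2.26 FPKM in the control libraries and 7.49, 8.81 and 4.86 FPKM in the null libraries. Replicate 2 was its highest null library and replicate 3 its lowest. All 8 loci except Raly had this order. It is also the order of the members' mean level, which the loci were chosen to match, so it carries no weight of its own. Gadd45b, a stress-response gene, rose from 5.17 to 9.90 FPKM. The other 6 differed by ratios of only 1.16 to 1.499.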

How the data were processed

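Total RNA of 6 mouse ES cell libraries was depleted of ribosomal RNA before sequencing, per the labels' protocols. TopHat, Cuffdiff, Trim Galore, FastQC and the build mm10 are named in the submitters' processing notes; no version, and no handling of strand or of reads with several matches, is stated there or in the labels. Each deposited file gives 1 value for each locus, taken as FPKM made by the authors because the values are not whole, their totals differ and their low values step with gene length. No raw count was used, so depth is a rough estimate: 87.9% of 1442 low protein-coding genes had values that were whole multiples of a step within 0.08 fragments.

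Loci were placed on GRCm38.p6 by RefSeq accession (22633 of 23244). Differences were tested with R 4.3.3 and limma 3.58.1 (lmFit, then eBayes with its trend option) on log2(FPKM + 1), with no covariate, for loci that averaged 1 FPKM or more. Family sums used an exact permutation test over the 6 libraries. Shared windows and coding identity came from GENCODE M21 transcripts (Biopython 1.88). On simulated data (11480 genes, 200 changed), the test recovered 72.3%, 91% and 97.3% of the genes changed 1.5-fold, 2-fold and 3-fold. Spreads there came from these libraries but were not matched to each gene's own level, a relation that the trend option models. At most 4.4% of calls there were unchanged genes. Whether these rates hold for the libraries themselves, where 2894 loci were called, or for genes of low level was not tested.

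The members and lists were chosen with earlier results of these data known. Named genes were the members, other loci of their families, the called genes of each list (at most the 8 largest changes), Zscan10 and the 8 loci most like the members; other genes, among them Dppa4, Trim28, Kdm1a, Eif1a and the markers named singly, were named after their values were seen.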

Additional observations from a re-analysis of the deposited data

How the results depend on the processing

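The alternatives changed the added constant (0.1 or 0.5), the minimum level (none or 5 FPKM), the scaling (median centring or quantile normalization), the variance trend, a replicate block and each library in turn. In each of these runs that tested them, Zscan4c, Zscan4d, Zscan4f, Usp17la, Usp17le, Tdpoz3 and Gm5662 were called higher, and Tcstv3 was not (limma adjusted p from 0.197 to 0.9497). No tested member's log2 fold change and no ratio of the Zscan4, Tcstv, Usp17l or Tdpoz sum changed direction. Higher and lower loci numbered 1468 and 1426, but 1718 and 1214 with median centring, 1331 and 1367 with quantile normalization and 1288 and 1381 without the variance trend. Which of these counts was larger therefore depended on the setting. Leaving out single libraries gave 1719 to 2914 loci called (2894 with all), 16 to 18 other 2-cell genes (20), 5 to 6 activators (6) and 7 to 16 repressors (14). The low counts of loci were 1776 without control replicate 1 and 1719 without control replicate 2. With a minimum of 5 FPKM, 9 of 9 tested other 2-cell genes were called, fewer because fewer were tested. The ratio of the Usp17l sum was 3.475 over member loci only and 2.03 from mean log2 values, and 2.37 to 2.84 with single libraries left out. For the Tdpoz sum these were 3.949, 1.43 and 2.25 to 3.541, the highest without control replicate 1. The members' median shared sequence was 49.6% with 50-base and 29.6% with 100-base windows. Same-numbered libraries deviated from their group means with correlations of −0.002, 0.108 and 0.053, so the numbers do not pair them. The replicate block gave 2264 loci, 7 members, 18 other 2-cell genes, 6 activators and 10 repressors called. Of these repressors 9 were higher and 1 was lower, against 10 and 4 without the block. Tcstv1, Tcstv3, Tdpoz3 and Dux rest on few fragments; whether depth bears on their calls was not tested.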
